A study of Homo sapiens with 12 samples.

Results

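NR0B1 overexpression in A549 cells was compared with its own control across all genes, using 6 of the 12 RNA-seq libraries of the series: 3 labelled NR0B1 overexpression (OE) and 3 labelled WT-overexpression control (OEC). A549 is a human lung adenocarcinoma line, and both groups carry the label of no treatment. The labels give neither the vector and promoter, nor the level aimed at, nor whether the cells were a clone or a pool, and nothing says whether replicates came from different cultures, so p-values measure only the spread between these libraries. The remaining 6 libraries, a knockdown of NR0B1 (shNR0B1) and its control (shNC), entered the fit for a shared estimate of the spread. Expected counts of Ensembl transcripts were summed into 19647 genes, of which 11908 entered the test because at least 3 of the 12 libraries held them at 1 FPKM or above.

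NR0B1 (DAX1) belongs to the nuclear receptors but lacks their usual DNA-binding domain and has no known ligand. It is best known as a corepressor of other nuclear receptors, above all of steroidogenic factors in the adrenal gland and gonads, where its loss causes adrenal hypoplasia. In lung adenocarcinoma with active NRF2 it has been described as part of a transcriptional complex that the cells depend on. AP-1 subunits and glutathione genes are not described here. The question was which other genes differed between cells made to overexpress NR0B1 and their control.

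The libraries carried the A549 identity: all 13 of 13 epithelial and A549 markers were tested, with summed levels of 20000 to 24600 CPM (counts scaled to effective library size) in OE and 22800 to 26600 CPM in OEC. CDKN2A and CDKN2B, deleted in this line, were at 0 in every OEC library and reached 0.0783 CPM at most in OE. Of 12 leukocyte markers, 7 were at 0 in all 6 libraries, PTPRC and CD3E among them. The list summed to 3.21 to 4.26 CPM in OE and 9.28 to 9.73 CPM in OEC, most of it CD14. Endothelial markers summed to 1.86 to 1.96 CPM in OE and 0.651 to 1.59 CPM in OEC, and fibroblast markers to 2.2 to 3.68 CPM in OE and 1.27 to 3.44 CPM in OEC.

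One control library stood apart. OEC replicate 1 differed by 2-fold or more from the mean of the other 2 controls in 859 genes (7.21% of those tested), 505 above and 354 below, on log2(CPM + 1). The same count was 190 to 242 for the 3 OE libraries, and 245 and 314 for OEC replicates 2 and 3. Across genes, OEC replicate 1 correlated with the other controls at r = 0.949 and 0.953, whereas those 2 correlated with each other at 0.985 and the OE libraries among themselves at 0.975 to 0.982. Its root mean square distance to the OE mean, 0.598 log2 units, was about as large as its distance of 0.581 to the other controls. shNR0B1 replicate 2 also stood apart, at 1081 genes, and bears on this comparison through the shared spread. The OE libraries were also shallower, with 15049011 to 17142583 expected counts, against 18160446 to 21305826 in OEC, and the part of depth in the results was not tested.

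Part of the distance depended on whether transcripts assembled by the authors, which were left out of the gene sums, were added to the Ensembl transcripts. With the assembled transcripts of the same gene symbol included, OEC replicate 1 stood 2-fold apart in 651 genes, 582 of which were also apart without them. The OE libraries fell to 28 to 69 genes on that count and the other controls to 88 and 142. The separation of OEC replicate 1 was thus seen with both ways of summing, and the counts of list members below are given with and without that library.

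**Figure D1:**
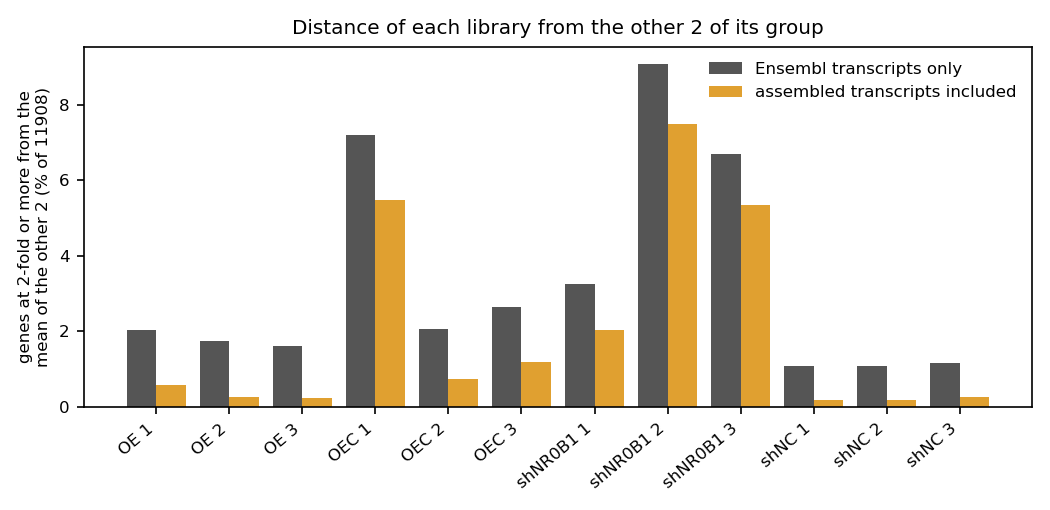
Genes that lay 2-fold or more from the mean of the other 2 libraries of the group, as a percentage of the 11908 tested, for each of the 12 libraries (grey: Ensembl transcripts only; yellow: assembled transcripts included). OEC replicate 1 reached 7.21% and 5.47%, far above the other 5 libraries of the comparison, and shNR0B1 replicate 2 reached 9.08% on the first measure.

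NR0B1 (ENSG00000169297; chromosome X, 30304206 to 30309598, minus strand, GRCh38) is the check of the labels. It stood at 98.9, 81.8 and 84.1 CPM in OE replicates 1 to 3, against 17.9, 60.1 and 55.2 CPM in OEC replicates 1 to 3. All OE libraries were above all controls, and the lowest control was OEC replicate 1. The log2 fold change was 0.99 (SE 0.38), with an adjusted p of 0.0912 by edgeR's quasi-likelihood test (Benjamini-Hochberg over all genes tested), and 0.62 without OEC replicate 1 (adjusted p = 0.106). A two-sided exact permutation test gave p = 0.1, the smallest value that 3 against 3 libraries allow. Nearly all of the counts fell on transcript ENST00000378970, with 1380, 1180 and 1060 expected counts in OE and 280, 1100 and 846 in OEC. The shorter ENST00000378963 held 10.3, 7.13 and 13.6 expected counts in OE and 1.02, 4.71 and 2.39 in OEC. The difference in NR0B1 was thus 1.99-fold with all libraries, and its call depended on the fit: DESeq2 gave an adjusted p of 0.0415, limma one of 0.0452 on log2(FPKM + 1) and of 0.0602 on log2(FPKM + 0.1). In bulk libraries, more RNA per cell and more cells with the transcript cannot be told apart, here or in any result below.

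At an adjusted p below 0.05, 2152 genes were called, 18.1% of those tested: 1175 higher in OE (9.87%) and 977 lower (8.2%). Of these, 565 (4.74%) differed by 2-fold or more. Without OEC replicate 1 the calls were 3013 (25.3%), 1686 higher (14.2%) and 1327 lower (11.1%), and 893 (7.5%) at 2-fold. The fits shared 1915 called genes, all in the same direction, which is 89.0% of the calls with all libraries and 63.6% of those without OEC replicate 1. In 1012 of the 1098 genes called only without it, OEC replicate 1 lay nearer to the OE mean than to the mean of its fellow controls, as it did in 49.0% of all genes tested. The way these genes were selected favours that pattern, so the count is a description and not a test. The median log2 fold change over all genes was -0.03, and -0.01 without OEC replicate 1. In 5181 genes (43.5%) the OE and OEC libraries did not overlap.

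A narrower set of 670 genes (5.63%), 440 higher (3.69%) and 230 lower (1.93%), was called in the same direction with all libraries, without each of the 12 libraries in turn, in the 6 libraries alone and in DESeq2, with no overlap between OE and OEC. These are called the stable genes below. A named gene that is said to lie outside them lost its call, or its groups overlapped, in at least 1 of those settings. With the assembled transcripts included, 644 of the 670 were still called in the same direction.

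**Figure D2:**
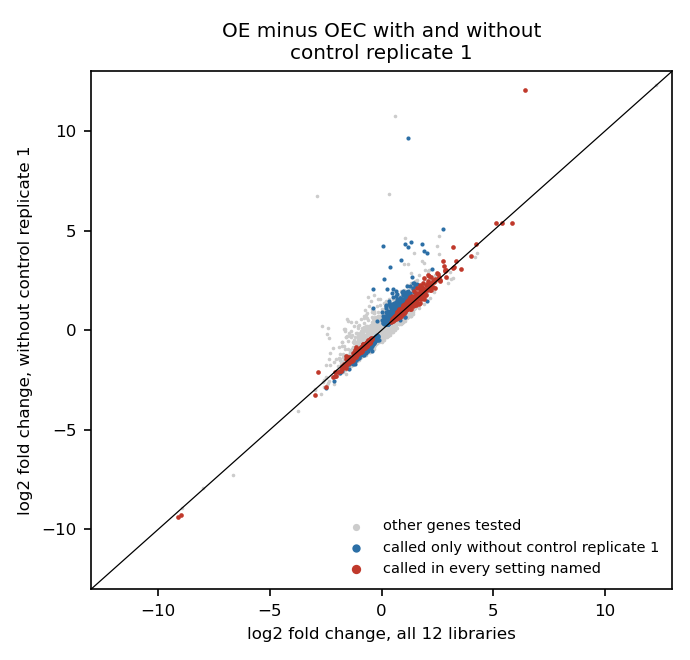
Log2 fold change of OE minus OEC with all 12 libraries (x axis) and without OEC replicate 1 (y axis) for the 11908 genes tested, with the line of equality. Most of the 670 stable genes (red) lie near the line, with DIO2 at 12.07 on the y axis the farthest from it, whereas the genes called only without OEC replicate 1 (blue, 1098) lie mostly farther from 0 on the y axis.

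Targets of YAP and TEAD were among the strongest rises. YAP is the coactivator restrained by the Hippo pathway, and the TEAD factors carry it to DNA. Of 22 tested genes of this list 10 rose and 0 fell, beside 9.87% and 8.2% of all genes tested, and the list's median log2 fold change was 0.44 (17 of 22 positive). Without OEC replicate 1 the counts were 11 and 1 and the median 0.49, and with assembled transcripts 10 and 0. The level of this list in OEC replicate 1 was the lowest of the 6 libraries.

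CTGF, a secreted matrix protein and the most used readout of YAP, stood at 184, 184 and 215 CPM in OE, against 18.1, 21.6 and 21.5 CPM in OEC. The groups were far apart and every library was close to its group mean (log2 fold change 3.25, SE 0.17, edgeR adjusted p = 6e-06). ANKRD1, a nuclear ankyrin repeat protein, had 90.4, 70.5 and 83.3 CPM in OE and 2.73, 5.73 and 6.64 CPM in OEC, with the lowest value in OEC replicate 1. CYR61, a close relative of CTGF, had 364, 457 and 477 CPM in OE and 59.6, 136 and 154 CPM in OEC (log2 fold change 1.89, adjusted p = 0.0105). The inhibitor of the pathway rose as well: the kinase LATS2, which phosphorylates YAP and is itself a target, had 121, 158 and 145 CPM in OE and 28.9, 41.2 and 44.1 CPM in OEC (log2 fold change 1.89, SE 0.16, adjusted p = 0.000193). The tissue factor gene F3 (log2 fold change 1.68), FJX1 (1.85) and FOXF2 (1.20) were the other stable members. AMOTL2, a scaffold that holds YAP outside the nucleus, was called at 1.33, outside the stable genes.

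The promoters of the pair with the largest rises in this list are shown because they hold more than 1 copy of the TEAD letters. The sequences are from RefSeq (GRCh38.p14), run 5′ to 3′ on the strand of the gene from 250 bases before to 50 bases after its start, and carry in capitals the letters CATTCC or, on the other strand, GGAATG. CTGF (named CCN2 by RefSeq) is at chr6:131951323-131951622, minus strand, with 3 copies that begin 169, 104 and 95 bases before the start. ANKRD1 is at chr10:90921038-90921337, minus strand, with copies that begin 220 and 128 bases before the start.
CTGF: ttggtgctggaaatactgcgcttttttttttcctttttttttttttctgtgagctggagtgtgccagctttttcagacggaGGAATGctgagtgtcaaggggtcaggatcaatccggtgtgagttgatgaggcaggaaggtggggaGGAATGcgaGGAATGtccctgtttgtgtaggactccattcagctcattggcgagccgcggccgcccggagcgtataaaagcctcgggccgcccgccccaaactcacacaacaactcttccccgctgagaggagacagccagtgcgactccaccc
ANKRD1: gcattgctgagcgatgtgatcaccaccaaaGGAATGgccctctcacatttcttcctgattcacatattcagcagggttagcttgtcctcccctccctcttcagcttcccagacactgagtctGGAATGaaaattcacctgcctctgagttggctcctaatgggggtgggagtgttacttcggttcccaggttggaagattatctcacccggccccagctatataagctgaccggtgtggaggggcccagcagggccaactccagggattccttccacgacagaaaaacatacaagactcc
The 6 letters were found on either strand in 7 of the 16 promoters of the list that are in the table (43.8%), in 14% of all 27305 promoters and in 10.5% of the promoters of genes tested. Among the promoters of stable rises the share was 9.97%. A match is a description of the sequence and not of binding.

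NR4A3 and EGR3 were among the largest rises. Both are known as immediate early genes, which growth factor and calcium or cAMP signals switch on within minutes. The nuclear receptor NR4A3 had 68.8, 62 and 85.2 CPM in OE and 2.8, 1.8 and 1.63 CPM in OEC (log2 fold change 5.11, SE 0.37, adjusted p = 5.31e-05). EGR3, a zinc finger factor, had 13.7, 11.1 and 14.9 CPM in OE and 0.0636, 0.109 and 0.521 CPM in OEC, so that the controls were near 0. Of 18 tested EGR and KLF factors and their NAB cofactors, 8 rose and 1, KLF16, fell, with a median of 0.33. Stable members beside EGR3 were KLF2 (8.09, 5.02 and 6.03 CPM in OE, 1.65, 2.08 and 1.5 CPM in OEC), KLF7 (log2 fold change 1.07) and NAB2, a corepressor of EGR proteins (1.31). NAB1, KLF4, KLF6 and KLF10 rose outside the stable genes. Without OEC replicate 1 the counts were 9 and 1.

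The cAMP and CREB response list had 7 rises and 0 falls among 20 tested genes (median 0.39), 6 and 0 without OEC replicate 1. DIO2, the deiodinase that activates thyroid hormone, had 24.1, 37.2 and 36.9 CPM in OE and 1.14, 0 and 0 CPM in OEC. On Ensembl transcripts all of its control signal was thus in OEC replicate 1. The fitted log2 fold change of 6.43 (SE 0.97, adjusted p = 0.00276) moved to 12.07 without that library, a value that rests on controls at 0. With assembled transcripts DIO2 had 1.14, 0.546 and 0 CPM in OEC, and the log2 fold change was 5.83 (edgeR adjusted p = 0.000672). BDNF, a neurotrophin, had 81.7, 106 and 92.9 CPM in OE and 33.4, 41 and 43.4 CPM in OEC (log2 fold change 1.25, adjusted p = 0.00126). NR4A1, ATF3, CREB5 and PDE4D were called higher outside the stable genes.

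Nuclear receptors were called in both directions, at shares near those of all genes tested (9.87% higher and 8.2% lower). Of 33 tested, 3 rose (NR4A3, NR4A1 and RARA) and 4 fell, NR1H2, NR3C2 and RARB among them, while 26 of 33 had a negative log2 fold change and the median was -0.41. Without OEC replicate 1 the counts were the same and the median was -0.28. In the 6 libraries alone 6 rose and 6 fell, and with assembled transcripts 3 rose and 8 fell. The retinoic acid receptor RARA had 77.9, 97.8 and 80.3 CPM in OE and 54.4, 40.1 and 38.8 CPM in OEC. It is a stable gene (log2 fold change 0.94, edgeR adjusted p = 0.00314).

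**Figure D3:**
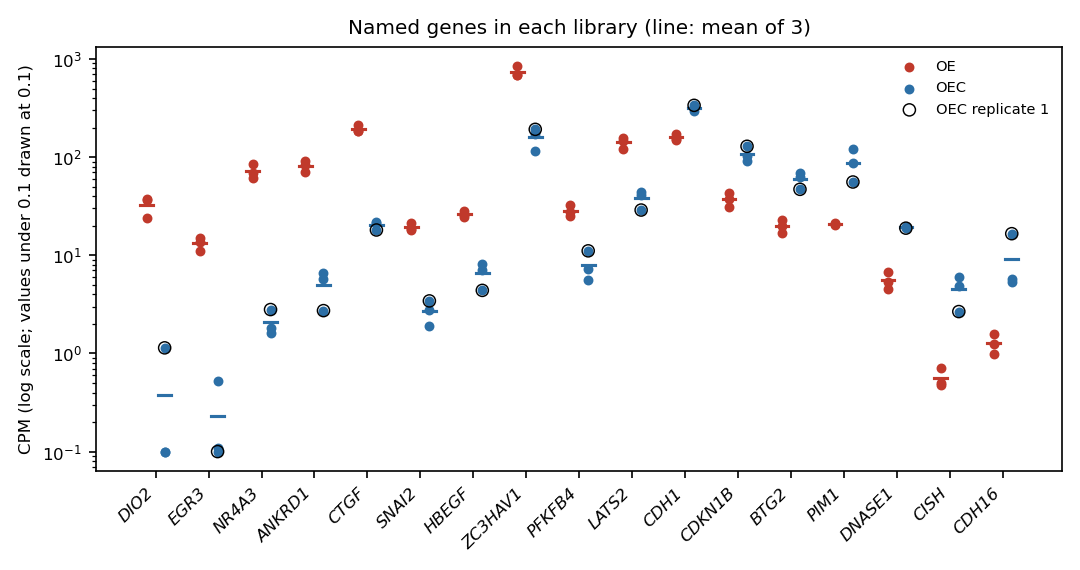
CPM (log scale, values under 0.1 drawn at 0.1) of 17 named genes in each OE (red, left) and OEC (blue, right) library, with the mean of 3 as a line and OEC replicate 1 ringed. All 17 are stable genes, for which no overlap between OE and OEC was a condition of selection. They range from DIO2 and EGR3 with controls near 0 to CISH and CDH16 with OE at 1.58 CPM or less.

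The EGFR family list, with 2 rises and 4 falls among 24 tested genes, held rises near the 9.87% of all genes tested. HBEGF, a ligand of the EGF receptor, had 24.5, 28 and 25.7 CPM in OE and 4.39, 7.15 and 8.13 CPM in OEC (log2 fold change 1.99, SE 0.43, adjusted p = 0.0119). NRG1, the ligand of ERBB3 and ERBB4, had 327, 366 and 396 CPM in OE and 222, 160 and 169 CPM in OEC (log2 fold change 0.98, adjusted p = 0.00314). These were the 2 rises. The 4 falls, all outside the stable genes, were the receptor ERBB3 (log2 fold change -1.30) and the adaptors GRB7 (-3.73), CBLB (-1.11) and GAB2 (-0.74). Leaving out OEC replicate 1 gave 3 and 3. Among 26 genes of ERK feedback and targets 6 rose and 1 fell (7 and 2 without OEC replicate 1). The stable rises were the phosphatase DUSP14 (1.14), the inhibitor SPRED2 (0.68) and the ephrin receptor EPHA4 (0.83), and the fall was the inhibitor SPRY1 (-1.91), outside the stable genes.

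Members of the TGF-beta and BMP pathway were called in both directions. Of 47 tested genes 6 rose and 6 fell (median 0.10), beside 9.87% and 8.2% of all genes tested. The counts were 9 and 7 without OEC replicate 1 and 11 and 6 with assembled transcripts. SMAD7, the inhibitory SMAD, had 30.9, 37.8 and 39.4 CPM in OE and 7.57, 7.59 and 5.86 CPM in OEC (log2 fold change 2.36, SE 0.24, adjusted p = 0.000525). With assembled transcripts SMAD7 had 31, 37.8 and 54.9 CPM in OE and 14.1, 7.6 and 15.4 CPM in OEC. Its log2 fold change was then 1.74 (edgeR adjusted p = 0.00522). The secreted BMP antagonist GREM1 had 37.7, 48.1 and 44 CPM in OE and 0.699, 5.52 and 4.81 CPM in OEC, with OEC replicate 1 again the lowest. SKIL, a repressor of SMAD transcription, was higher at 1.03. The transducer SMAD3 had 528, 519 and 488 CPM in OE and 763, 842 and 992 CPM in OEC (log2 fold change -0.76, adjusted p = 0.00867). The corepressor TGIF1 (-0.76) and the latent TGF-beta binding protein LTBP3 (-0.61) were also lower.

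Of 39 tested genes of JAK and STAT signalling and its feedback 3 rose and 3 fell (median -0.11), and 5 and 3 without OEC replicate 1. With all libraries these shares were no larger than the 9.87% higher and 8.2% lower of all genes tested, so the list did not stand out, and its stable members are described singly. CISH, a cytokine-induced inhibitor that STAT5 switches on, had 0.497, 0.481 and 0.704 CPM in OE and 2.67, 4.81 and 6.05 CPM in OEC (log2 fold change -3.0, SE 0.43, adjusted p = 0.00233). The kinase PIM1, also a STAT target, had 20.8, 21.1 and 20.4 CPM in OE and 55.8, 86.3 and 120 CPM in OEC (log2 fold change -2.07, adjusted p = 0.00279). The OE values of PIM1 were nearly equal, and OEC replicate 1 was the control nearest to them. SOCS1 (3.34, 2.82 and 2.43 CPM in OE, 0.699, 0.71 and 0.26 CPM in OEC) and SOCS4 (log2 fold change 0.57) were stable rises, SOCS5 rose and the phosphatase PTPN6 fell outside the stable genes.

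The CISH promoter is shown because it holds 4 copies of the STAT letters TTCNNNGAA (capitals), which read the same way on both strands. It is at chr3:50611725-50612024, minus strand (GRCh38.p14, RefSeq), and the copies begin 241, 230, 129 and 112 bases before the start.
CISH: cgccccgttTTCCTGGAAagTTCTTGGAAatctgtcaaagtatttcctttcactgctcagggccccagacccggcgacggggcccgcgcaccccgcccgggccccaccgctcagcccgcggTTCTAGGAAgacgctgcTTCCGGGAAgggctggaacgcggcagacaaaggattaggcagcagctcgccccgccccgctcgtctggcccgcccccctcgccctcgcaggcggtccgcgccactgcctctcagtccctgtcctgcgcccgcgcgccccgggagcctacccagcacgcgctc
At least 1 copy was found in 3 of 34 promoters of the JAK and STAT list (8.82%) and in 7.88% of all 27305 promoters. The share was 7.03% among the promoters of stable falls and 6.93% among those of stable rises.

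Several genes of adhesion and epithelial identity were lower in OE. All 15 tested integrin subunits had a negative log2 fold change (median -0.55). Of these 4 fell and 0 rose, with 6 and 0 without OEC replicate 1 and with assembled transcripts. With all libraries 26.7% of the subunits were called, all lower, beside 18.1% of all genes tested (8.2% lower). ITGB1, the subunit shared by most matrix receptors, had 2590, 2660 and 2650 CPM in OE and 3310, 3790 and 4270 CPM in OEC (log2 fold change -0.52, adjusted p = 0.0109). ITGAM, the leukocyte integrin subunit, was the stable one, with 2.41, 2.2 and 2.11 CPM in OE and 6.23, 4.64 and 6.9 CPM in OEC. ITGAV (-0.55) and ITGB4 (-0.78) were the others. For ITGB4 the groups overlapped, since OEC replicate 1 had 640 CPM, between the OE values of 664, 627 and 583 CPM, against 1250 and 1340 CPM in the other controls.

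Of 26 tested cadherins and protocadherins 4 fell and 0 rose (median -0.23), 3 and 0 without OEC replicate 1. The share called with all libraries was 15.4%, all lower, beside 18.1% of all genes tested (8.2% lower). E-cadherin, CDH1, the adherens junction protein of epithelia, had 174, 153 and 150 CPM in OE and 337, 293 and 328 CPM in OEC (log2 fold change -1.01, SE 0.14, adjusted p = 0.00215). CDH17 had 43.9, 29.5 and 33.5 CPM in OE and 125, 79.9 and 101 CPM in OEC. CDH16 had 0.994, 1.58 and 1.25 CPM in OE and 16.6, 5.68 and 5.4 CPM in OEC, and its log2 fold change of -2.85 became -2.11 without OEC replicate 1 (adjusted p = 0.0104). PCDHA4 belongs to a cluster whose transcripts share exons and its call of -0.55 is uncertain. The protease inhibitor SPINT2, a marker of the epithelial state, had 174, 160 and 163 CPM in OE and 285, 365 and 366 CPM in OEC.

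SNAI2, a repressor of E-cadherin and a marker of the mesenchymal state, had 18.3, 21.4 and 18.6 CPM in OE and 3.43, 2.79 and 1.89 CPM in OEC (log2 fold change 2.84, SE 0.35, adjusted p = 0.00105). The mesenchymal list did not move as a whole: 3 of 23 tested genes rose and 1 fell (3 and 4 without OEC replicate 1), and the median was 0.0. Calls made up 17.4% of it, near the 18.1% of all genes tested. Besides SNAI2 the rises were THBS1 and FOXC2 and the fall S100A4. THBS1 had 370, 350 and 451 CPM in OE and 6.74, 61.7 and 67.7 CPM in OEC, another gene with OEC replicate 1 the lowest by far. The epithelial list had 4 falls and 0 rises among 24 (median -0.34), CLDN4 and JUP in addition to CDH1 and SPINT2. There were 5 falls and 2 rises without OEC replicate 1. With all libraries 16.7% of the epithelial list was called, all lower, beside 18.1% of all genes tested (8.2% lower).

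Collagen and laminin chains fell in 5 of 25 tested genes and rose in 0 (median -0.36), with 8 and 0 without OEC replicate 1. The stable member was LAMB2, with 148, 160 and 149 CPM in OE and 251, 258 and 265 CPM in OEC. LAMA5, LAMC1, COL6A1 and COL17A1 were the others. Semaphorins, plexins and neuropilins, which guide cell migration, had 7 falls and 2 rises among 21 tested genes, the same counts as without OEC replicate 1. The plexin PLXNB3 had 3.05, 2.89 and 3.68 CPM in OE and 8.71, 11.4 and 12.2 CPM in OEC. SEMA7A, with 3.55, 5.98 and 4.31 CPM in OE and 0.699, 1.2 and 1.76 CPM in OEC, and PLXNA3 were the rises. Of 25 matrix proteases and inhibitors 5 fell and 0 rose (7 and 2 without OEC replicate 1), the stable ones being ADAM15 (log2 fold change -0.78) and ADAMTS7 (-1.84).

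SRF, the serum response factor that controls actin genes, had 108, 106 and 107 CPM in OE and 57, 48.5 and 53 CPM in OEC (log2 fold change 1.02, SE 0.16, adjusted p = 0.00321). The list of its targets did not follow: 3 of 32 rose (SRF, TPM1 and SSH1), 2 fell (MYH9 and TLN1) and the median was -0.03, the same as over all genes. Leaving out OEC replicate 1 gave 5 and 2, and the 6 libraries alone 2 and 3. Calls with all libraries made up 15.6% of the list, beside 18.1% of all genes tested. The fall of MYH9 ended with assembled transcripts included (log2 fold change -0.28, adjusted p = 0.085). SRF is known to act on its own promoter through CArG boxes, 6 letters A or T between CC and GG, so that promoter is shown with both copies in capitals, which begin 30 and 10 bases before the start (chr6:43171019-43171318, plus strand, GRCh38.p14, RefSeq).
SRF: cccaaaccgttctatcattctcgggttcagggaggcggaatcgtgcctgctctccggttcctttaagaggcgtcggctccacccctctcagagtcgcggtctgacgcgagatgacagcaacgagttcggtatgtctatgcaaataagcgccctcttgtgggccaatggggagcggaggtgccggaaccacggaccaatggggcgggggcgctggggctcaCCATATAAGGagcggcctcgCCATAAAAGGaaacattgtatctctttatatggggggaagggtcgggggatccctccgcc
A CArG box was found in 1.29% of all 27305 promoters and in 1.39% of those of stable rises.

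The p53 target list had 11 falls and 2 rises among 39 tested genes (median -0.26), and 12 and 2 without OEC replicate 1. Its share called with all libraries was 33.3%, against 18.1% of all genes tested. With assembled transcripts 8 fell. BTG2, an antiproliferative gene, had 19.7, 23.1 and 16.9 CPM in OE and 47, 62.4 and 68.4 CPM in OEC (log2 fold change -1.57, SE 0.21, adjusted p = 0.00194). SESN1 was lower at -1.47. CDKN1A, the p21 inhibitor of cyclin-dependent kinases, had 273, 394 and 307 CPM in OE and 710, 609 and 688 CPM in OEC and was outside the stable genes (adjusted p = 0.0199). The fall of SAT1 was -2.18 on Ensembl transcripts, but 48.3% of its counts were in assembled transcripts, with which it was -1.24 (adjusted p = 0.0519). The fall of TNFRSF10B ended in the same way.

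The cell cycle list had 4 rises and 4 falls among 73 tested genes (median 0.14, 45 of 73 positive), 4 and 5 without OEC replicate 1, and 15 and 4 in the 6 libraries alone. With all libraries its shares of rises and falls were below the 9.87% and 8.2% of all genes tested. The cell cycle list did not stand out by these shares, and its members are described singly. CDKN1B, the p27 inhibitor, had 42.7, 37.4 and 31 CPM in OE and 129, 92.1 and 102 CPM in OEC (log2 fold change -1.54, SE 0.22, adjusted p = 0.00206). The replication clamp PCNA had 519, 516 and 479 CPM in OE and 724, 851 and 816 CPM in OEC. CDKN1A and CDKN2C also fell, and CCND1, CDK6, ORC6 and POLE rose, all outside the stable genes. Cyclin D1, CCND1, had 631, 591 and 602 CPM in OE and 350, 177 and 205 CPM in OEC. Of 35 apoptosis regulators 1 rose, the survival factor MCL1 (524, 503 and 534 CPM in OE, 352, 290 and 306 CPM in OEC). The 3 falls were BBC3, BAD and BOK, which promote cell death (3 rises and 3 falls without OEC replicate 1). With all libraries the share of rises was below the 9.87% of all genes tested, and the share of falls was near the 8.2%. The apoptosis list thus did not stand out, and its members are described singly.

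**Figure D4:**
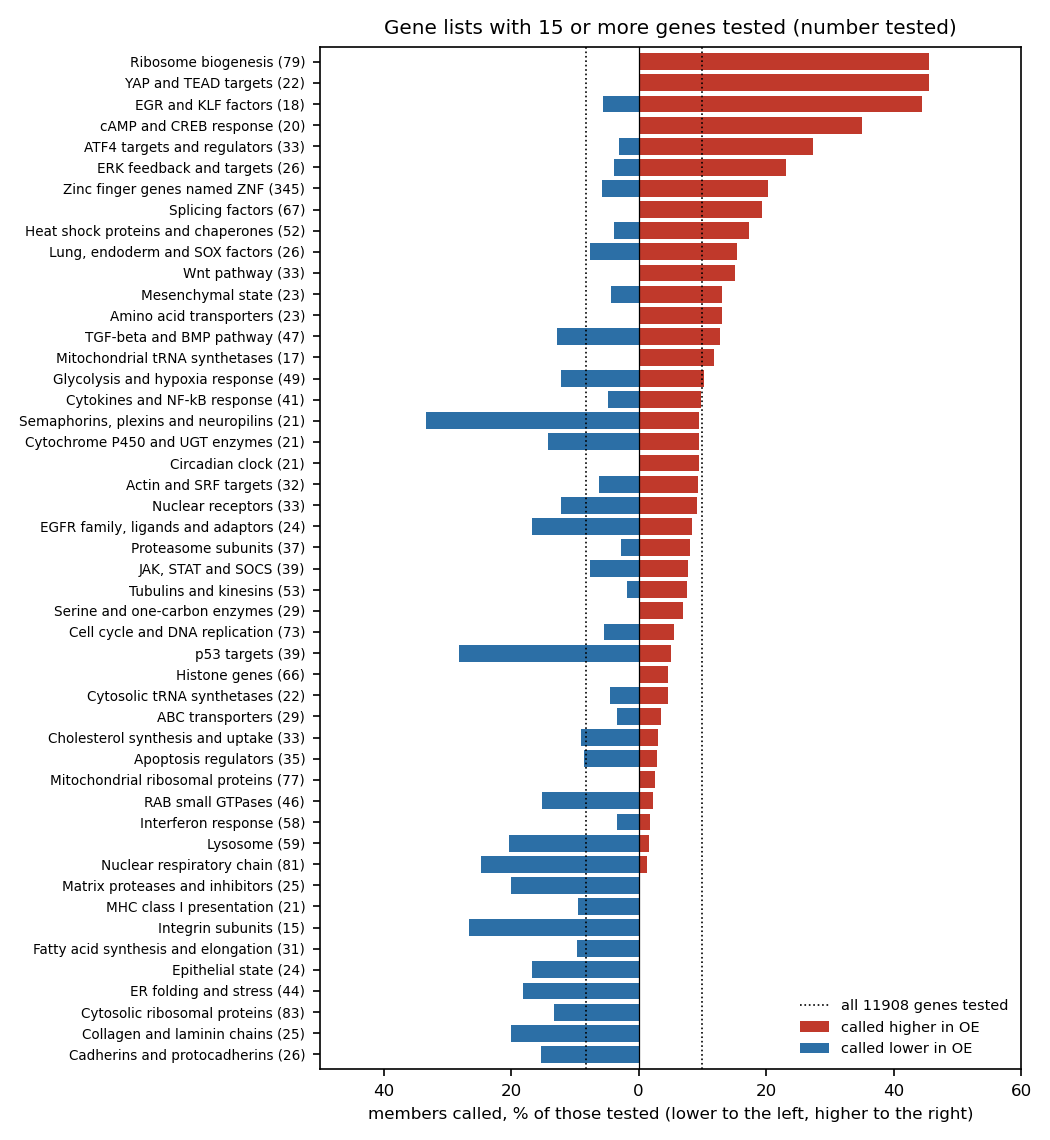
Members called higher (red, right) and lower (blue, left) in OE as a percentage of the members tested, for the gene lists with 15 or more genes tested (number in brackets), with dotted lines at the 9.87% and 8.2% of all genes tested. Ribosome biogenesis and YAP targets lead to the right, with 36 of 79 and 10 of 22, and nuclear respiratory chain and integrin genes are among those to the left, with 20 of 81 and 4 of 15.

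Ribosome biogenesis was the list with the largest share of rises. This set holds the nucleolar factors that transcribe, process and assemble ribosomal RNA. Of 79 tested genes 36 rose and 0 fell (median 0.58, 72 of 79 positive), and 12 were stable. The counts were 47 and 1 without OEC replicate 1 and 48 and 0 with assembled transcripts. The share called with all libraries was 45.6%, against 18.1% of all genes tested. The helicase DDX52 had 64.4, 71.5 and 75.3 CPM in OE and 35.4, 31.6 and 35.7 CPM in OEC (log2 fold change 1.04, SE 0.12, adjusted p = 0.000732). The processome subunit UTP3 (0.99), the assembly factors TSR1 (0.85) and RIOK1 (1.34), the methyltransferase NOP2 (0.93) and the polymerase subunit POLR1C (0.99) were further stable rises. OEC replicate 1 lay between the groups in this list, above the other controls. The E-box CACGTG was found in 25 of 68 promoters of the list (36.8%), in 7.43% of all 27305 promoters and in 10.4% of those of genes tested.

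The ribosomal proteins themselves did not rise. Of 83 tested cytosolic ribosomal protein genes 0 rose and 11 fell (median -0.28, 78 of 83 negative), and 29 fell without OEC replicate 1. The share called with all libraries was 13.3%, all lower, beside 18.1% of all genes tested (8.2% lower). RPS19 was the stable one, with 672, 739 and 782 CPM in OE and 964, 1260 and 1110 CPM in OEC (log2 fold change -0.61, adjusted p = 0.00876). These genes have many processed pseudogenes, so counts per gene are uncertain. Mitochondrial ribosomal proteins had 2 rises, MRPL27 and MRPL42, and 0 falls among 77 (4 and 3 without OEC replicate 1), with a median of 0.05. Calls with all libraries made up 2.6% of them, below the share over all genes tested.

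Nuclear genes of the respiratory chain fell in 20 of 81 cases and rose in 1, NDUFA9 (median -0.31, 74 of 81 negative), with 22 and 1 without OEC replicate 1. The share called with all libraries was 25.9%, beside 18.1% of all genes tested (8.2% lower). The changes were small: COX6A1, a subunit of cytochrome c oxidase and the stable one, had 150, 133 and 148 CPM in OE and 200, 207 and 199 CPM in OEC (log2 fold change -0.49, adjusted p = 0.00417), and UQCRQ, of complex III, had the lowest value among the falls, -0.79. The mitochondrially encoded genes had 2 rises, MT-ATP8 and MT-ND6, and 0 falls among 13 (15.4% called). Both genes overlap or face a neighbour on the mitochondrial genome.

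Transcript length, as implied by the ratio of deposited counts to FPKM, moved with direction. Among the 2977 genes with the shortest transcripts, 216 to 1795 bases, 4.6% rose and 10.5% fell, and among the 2977 with the longest, 4076 bases or more, 13.5% rose and 6.21% fell (Spearman correlation of length with log2 fold change over all genes 0.13, a description). The median transcript length was 746 bases for cytosolic ribosomal proteins and 860 for the respiratory chain, against 2398 for ribosome biogenesis, 3895 for YAP targets and 4555 for integrin subunits, which fell. The part of length in these list counts was not tested.

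Splicing factors rose in 13 of 67 tested genes and fell in 0 (median 0.24), with 22 and 5 without OEC replicate 1. SRSF6 had 381, 451 and 444 CPM in OE and 213, 93.1 and 81.3 CPM in OEC (log2 fold change 1.72, adjusted p = 0.00844), with OEC replicate 1 the control nearest to OE, and SRSF5 was higher at 0.71. The RNA helicases DDX5 (746, 751 and 778 CPM in OE, 437, 323 and 305 CPM in OEC) and DDX3X (846, 783 and 810 CPM in OE, 511, 408 and 426 CPM in OEC) were among the most abundant stable rises. Genes named ZNF, most of them zinc finger repressors of the KRAB class, rose in 70 of 345 cases and fell in 20 (median 0.21), with 31 stable rises and 8 stable falls. The counts were 76 and 31 without OEC replicate 1. Examples are ZNF202 (38, 38.4 and 38.9 CPM in OE, 14.5, 14.9 and 15.6 CPM in OEC), ZNF35 (log2 fold change 1.77) and ZNF26 (1.16). Many of these genes have close paralogs, so their counts are uncertain. Calls with all libraries made up 19.4% of splicing factors and 26.1% of ZNF genes, beside 18.1% of all genes tested (9.87% higher and 8.2% lower).

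Heat shock proteins and chaperones rose in 9 of 52 tested genes and fell in 2 (12 and 2 without OEC replicate 1). DNAJB1, the cochaperone of HSP70, had 193, 203 and 186 CPM in OE and 99.3, 73 and 81.5 CPM in OEC, and HSPA2 was higher at 1.59. Genes of folding and stress in the endoplasmic reticulum, chaperones among them, had 8 falls and 0 rises among 44 (median -0.21). Without OEC replicate 1 the counts were 10 and 1. With all libraries 21.2% of the heat shock list and 18.2% of the endoplasmic reticulum list were called. Over all genes tested 18.1% were called (9.87% higher and 8.2% lower). HSP90B1 had 569, 573 and 568 CPM in OE and 753, 918 and 1020 CPM in OEC, and CALR, the lectin chaperone calreticulin, was lower at -0.51.

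Lysosomal genes fell in 12 of 59 cases and rose in 1, ATP6V1B2 (median -0.24; 12 and 2 without OEC replicate 1), and 6 falls were stable. PSAP, the precursor of the saposins, had 900, 800 and 822 CPM in OE and 1530, 1470 and 1560 CPM in OEC (log2 fold change -0.85, SE 0.15, adjusted p = 0.00509). The membrane protein CD63 had 208, 185 and 184 CPM in OE and 328, 290 and 313 CPM in OEC, and the mannosidase MAN2B1 53.7, 53.9 and 57.5 CPM in OE and 98.8, 99.7 and 97.9 CPM in OEC. TFEB, the transcription factor that drives lysosomal genes, had 4.76, 4.6 and 4.62 CPM in OE and 10.2, 10.5 and 11.4 CPM in OEC. PSAP, CD63 and MAN2B1 are stable genes, for which no overlap between the groups was a condition of selection. The groups of TFEB did not overlap either, which held for 43.5% of all genes tested.

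Glycolysis and hypoxia genes were called in both directions, 5 higher and 6 lower of 49 (8 and 3 without OEC replicate 1, 6 and 11 in the 6 libraries alone). With all libraries 22.4% were called, near the 18.1% of all genes tested (9.87% higher and 8.2% lower), so members are described singly. All 5 rises were stable. They were the glucose transporter SLC2A3, the hypoxia-induced peptide ADM and 3 of the bifunctional enzymes that set fructose 2,6-bisphosphate, the activator of phosphofructokinase. PFKFB3 had 504, 593 and 506 CPM in OE and 283, 232 and 221 CPM in OEC (log2 fold change 1.12, adjusted p = 0.00373). PFKFB4 had 25.1, 32.4 and 27.5 CPM in OE and 11.1, 7.26 and 5.66 CPM in OEC, and PFKFB2 was higher at 0.65. ADM had 84.6, 110 and 104 CPM in OE and 30.8, 17.7 and 21.6 CPM in OEC. Phosphofructokinase itself was lower, PFKL at -0.53 as the stable fall and PFKM at -0.51, as were ALDOA, PDK2, HIF1A and P4HA2.

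Of 33 genes of cholesterol synthesis and uptake 1 rose and 3 fell (1 and 2 without OEC replicate 1). With all libraries 12.1% were called, below the 18.1% of all genes tested, so this list did not stand out. The rise was HMGCS1, the synthase ahead of HMG-CoA reductase, with 413, 276 and 342 CPM in OE and 91, 66.1 and 84.5 CPM in OEC (log2 fold change 2.09, SE 0.45, adjusted p = 0.0114), outside the stable genes. The aldose reductase AKR1B1 had 1000, 808 and 879 CPM in OE and 2730, 1500 and 1750 CPM in OEC (log2 fold change -1.16, -0.86 without OEC replicate 1), and AKR1C3 was lower at -0.82. Both reductases and APP, the amyloid precursor (-0.69), were among the most abundant stable falls. CYP27B1, the hydroxylase that activates vitamin D, had 7.17, 9.62 and 7.91 CPM in OE and 0.827, 0.983 and 1.56 CPM in OEC (log2 fold change 2.87, adjusted p = 0.000699).

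Among the stable rises were 2 abundant genes with antiviral roles, of which only TRIM25 is in the interferon response list. The zinc finger antiviral protein ZC3HAV1, which binds CpG-rich viral RNA, had 843, 685 and 683 CPM in OE and 192, 173 and 116 CPM in OEC (log2 fold change 2.2, SE 0.23, adjusted p = 0.000568). Its partner, the ubiquitin ligase TRIM25, had 596, 496 and 550 CPM in OE and 322, 237 and 198 CPM in OEC (log2 fold change 1.12, adjusted p = 0.0113). TRIM25 was the single rise among 58 tested interferon response genes, and IRF2 and GBP2 fell. Without OEC replicate 1 the counts were 1 rise and 1 fall, and in the 6 libraries alone 5 and 5. Only 5.17% of the list was called with all libraries, below the 18.1% of all genes tested, so these members are described singly. The list had 46 positive log2 fold changes and a median of 0.45 (0.85 without OEC replicate 1), with a wide spread: IFIT1 had 809, 535 and 628 CPM in OE and 413, 186 and 93.3 CPM in OEC, and was not called (adjusted p = 0.446).

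OEC replicate 1 differed from its fellow controls in whole groups of genes. Of the lists, the interferon genes deviated most, with a median log2 deviation of 1.04, against 0.01 over all genes tested (both on Ensembl transcripts). Of the 58 interferon genes, 31 lay 2-fold or more above with assembled transcripts. The ATF4 list of the amino acid and stress response had a median deviation of 0.68, and the mesenchymal list one of -0.58. With assembled transcripts 12 of the 33 ATF4 genes lay 2-fold above. In the ATF4 list 9 genes rose and 1, DDIT4, fell with all libraries (median 0.19), against 17 and 1 without OEC replicate 1 (median 0.64). With all libraries 30.3% of the ATF4 list was called, beside 18.1% of all genes tested. STC2, a secreted stress gene, had 225, 208 and 245 CPM in OE and 143, 55.7 and 57.2 CPM in OEC, so its log2 fold change of 1.40 became 2.0. TRIB3, a kinase-like inhibitor of that response, had 214, 161 and 234 CPM in OE and 365, 83.3 and 86.2 CPM in OEC, where OEC replicate 1 was above every OE library.

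**Figure D5:**
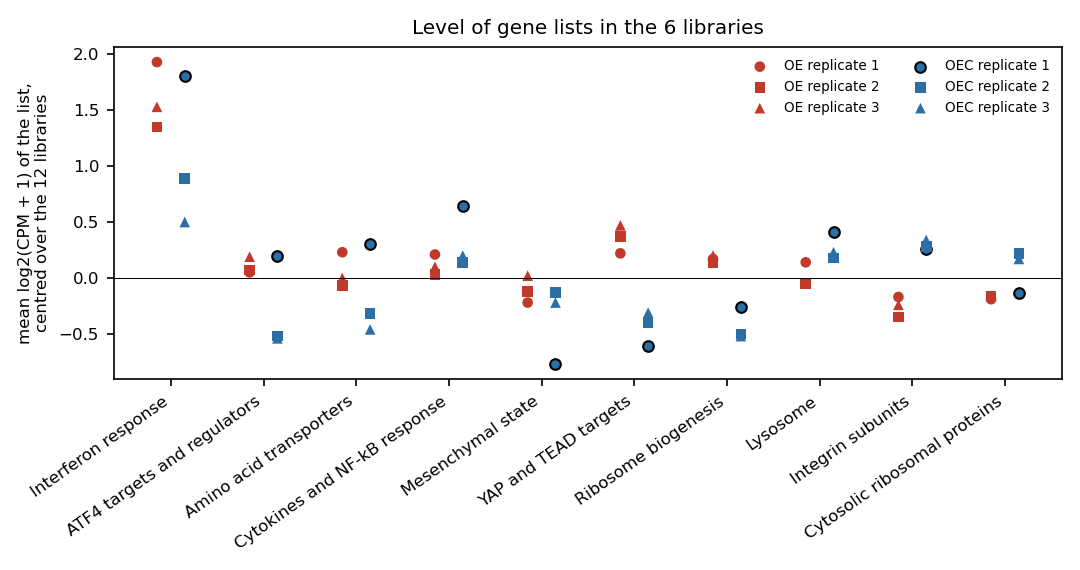
Mean log2(CPM + 1) of 10 gene lists in each OE (red, left) and OEC (blue, right) library, centred over the 12 libraries of the series, with OEC replicate 1 outlined in black. OEC replicate 1 lies among or near the OE libraries for interferon and ATF4 genes and below all others for the mesenchymal list and YAP targets, whereas the integrin and ribosome biogenesis lists separate OE from all 3 controls.

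The genes farthest off in OEC replicate 1 differed between the 2 ways of summing. Of the 16 genes with the largest deviations on Ensembl transcripts, 7 stayed 2-fold apart in the same direction with assembled transcripts. TXNIP, the thioredoxin-binding protein that glucose induces, had 3.05, 1.24 and 1.72 CPM in OE and 35, 2.29 and 1.11 CPM in OEC, with none of its counts in assembled transcripts. RFLNB had 22.7, 31.3 and 38.2 CPM in OE and 0, 24.4 and 12.8 CPM in OEC. In contrast, PTGES, at 26.2, 0 and 0 CPM in OEC on Ensembl transcripts, had 146, 141 and 164 CPM with the assembled ones, which held 90.8% of its counts.

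Genes called only without OEC replicate 1 show what that library changes. The translation initiation factor EIF5 had 282, 299 and 306 CPM in OE and 433, 103 and 85.2 CPM in OEC, with an adjusted p of 0.48 with all libraries and 0.00069 without OEC replicate 1. The glutamine transporter SLC38A1 had 498, 400 and 454 CPM in OE and 508, 193 and 227 CPM in OEC (adjusted p = 0.203 with and 0.000783 without that library). The phospholipid flippase ATP8B1 had 48.2, 64.5 and 61.3 CPM in OE and 31.9, 116 and 120 CPM in OEC (adjusted p = 0.25 with and 0.00127 without it). In all 3 genes OEC replicate 1 lay outside the range of the OE libraries on Ensembl transcripts, on the far side from the other controls. With assembled transcripts this held for EIF5 only. SLC38A1 then had 823 CPM in OEC replicate 1 and 854, 699 and 840 CPM in OE. ATP8B1 had 72.3 CPM in OEC replicate 1 and 69.7, 75.4 and 66.3 CPM in OE. It was then called with all libraries (log2 fold change -0.77, edgeR adjusted p = 0.0205). These genes were chosen for their calls on Ensembl transcripts, so the pattern is a description and not a test.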

How the data were processed

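The deposited table gives expected counts and FPKM per transcript for each library; both are the authors' values, per the file headers. Per the submitters' processing notes, the tools were RSEM, StringTie 1.3.1, HISAT2 2.0.5, Bowtie2 2.2.8 and fastp. These notes name mouse builds (GRCm38, mm10) although identifiers are human. Coordinates are from GENCODE 29 (GRCh38). Use of strand is not given in the sources used here, so overlapping antisense genes cannot be told apart. Of 96247 rows, 82270 are Ensembl transcripts; 13977 assembled ones, with 13.3% to 15.4% of counts, were left out. In 184 rows a symbol turned into a date was restored. Libraries held 15049011 to 21305826 expected counts in OE and OEC. A count of 3 equals 0.164 to 0.235 CPM there, and covers counting error only.

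Gene sums were rounded and fitted with edgeR 4.0.16 (quasi-likelihood, robust, TMM; R 4.3.3) over all 12 libraries, a mean per group, 8 residual degrees of freedom. SE is the absolute log2 fold change over the square root of F. Alternatives used DESeq2 1.42.0 and limma 3.58.1; the fit was tested on simulated data. Named genes are NR0B1; the 15 largest rises and falls and the 5 most abundant rises and falls (1.5-fold or more) of the stable genes; up to 4 stable members of each list by adjusted p, or 2 called ones; 8 genes each way farthest off in OEC replicate 1; and 8 called only without it. Not every such gene is printed, and other called members, IFIT1 and TRIB3 were added after their values were seen. The comparison and the lists, written from textbook knowledge, were chosen with earlier results of these data known. Some genes that these rules take are not reported here.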

Additional observations from a re-analysis of the deposited data

How the results depend on the processing

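With 1 library left out at a time, calls ran from 821 to 3300, higher calls from 537 to 1752, lower calls from 272 to 1548 and calls at 2-fold from 344 to 893. Without OE replicates 1, 2 and 3 the calls were 1226, 962 and 821, without OEC replicates 1, 2 and 3 they were 3013, 946 and 933, and without shNR0B1 replicate 2 they were 3300. Without both OEC replicate 1 and shNR0B1 replicate 2 there were 4462 calls (2372 higher, 2090 lower, 1040 at 2-fold). In the 6 libraries alone without OEC replicate 1, a fit chosen after seeing the data, there were 4864 (2545, 2319 and 1060), and there NR0B1 was called (log2 fold change 0.62, adjusted p = 0.00508), as it was with DESeq2 (1.0) and with limma on log2(FPKM + 1) (1.15). NR0B1 ran from 0.62 to 1.27 with 1 library left out and was not called in any of those fits. limma on log2(FPKM + 1), a scale that understates low genes, called 348 at 2-fold. On log2(FPKM + 1), OEC replicate 1 stood 2-fold apart in 525 genes. The other settings kept these counts within 1.5 times: size factors of DESeq2, no filter, a filter on the 6 libraries, assembled transcripts included (added after seeing the data for the library distances) and a pseudocount of 0.1. The sign changed for RGS12 (0.08), PTGES (-1.01) and NOMO1 (-0.50) with assembled transcripts, and for FAM49A (6.61) in the 6 libraries alone without OEC replicate 1. Of 82 list counts above 0, 80 moved by over 1.5 times in at least 1 of 23 settings, and 26 without OEC replicate 1. The cause of these shifts was not tested. Whether the replicate numbers pair the samples cannot be told from these values. Correlations of deviations were 0.25, 0.18 and 0.00 for the 3 same-numbered pairs, and -0.24 to 0.19 for the other pairs. The highest was OE replicate 1 with OEC replicate 1, whereas OE replicate 2 was closest to OEC replicate 3. With the replicate number as a block, 1557 genes were called, 909 higher, 648 lower and 523 at 2-fold, and NR0B1 had a log2 fold change of 1.14 (adjusted p = 0.131).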

Other observations

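Beyond the lists already described, several smaller families held stable genes. KRT80, a type II keratin, was the single call among 9 tested keratins, with 374, 437 and 413 CPM in OE and 187, 146 and 149 CPM in OEC (log2 fold change 1.34, edgeR adjusted p = 0.00322). Of 33 Wnt pathway genes 5 rose and 0 fell (9 and 2 without OEC replicate 1). The secreted Wnt antagonist DKK1 had 417, 561 and 546 CPM in OE and 78, 226 and 161 CPM in OEC, and FZD8, NKD2, RSPO3 and TLE1 were the other rises. Among lung, endoderm and SOX factors 4 of 26 rose and 2 fell (3 and 3 without OEC replicate 1): SOX4 had 210, 213 and 239 CPM in OE and 100, 93.7 and 84.1 CPM in OEC, FOXQ1, SOX9 and ID2 were also higher, and FOXA2 was among the falls. RAB small GTPases, which direct vesicle traffic, had 7 falls and 1 rise among 46 (6 and 3 without OEC replicate 1). The rise was RAB30 (36.6, 31.5 and 38.5 CPM in OE, 15, 12.8 and 17.5 CPM in OEC), and RAB11A was the stable fall at -0.55. Shares called with all libraries were 11.1% for keratins, 15.2% for Wnt, 23.1% for lung, endoderm and SOX factors and 17.4% for RAB genes. Over all genes tested the share was 18.1% (9.87% higher and 8.2% lower).

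Of 41 cytokine and NF-kB genes 4 rose (IL1RAP, IL11, IL18 and IL24) and 2 fell (IL1B and NFKBIE), against 3 and 0 without OEC replicate 1, which was high in this list. In the 6 libraries alone 5 rose and 9 fell, and 29 of the 41 log2 fold changes were negative (median -0.34). The receptor subunit IL1RAP had 61.8, 57.2 and 60.8 CPM in OE and 23.1, 18.1 and 21.3 CPM in OEC (log2 fold change 1.53, SE 0.12, adjusted p = 7.82e-05). Among amino acid transporters 3 of 23 rose and 0 fell (7 and 0 without OEC replicate 1), and SLC7A6 had 145, 174 and 193 CPM in OE and 57, 49.2 and 56.8 CPM in OEC. Of 66 histone genes 3 rose and 0 fell, while 6 rose without OEC replicate 1 and 22 in the 6 libraries alone. Histone copies share sequence, so their counts are uncertain. For the cytokine and NF-kB, amino acid transporter and histone lists, the share called with all libraries was below the 18.1% of all genes tested. These lists did not stand out by that share, and IL1RAP and SLC7A6 are described singly.

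Some of the largest stable changes lay outside every list. OSGIN1, an oxidative stress growth inhibitor, had 137, 122 and 119 CPM in OE and 33.1, 12.5 and 10.2 CPM in OEC, and its log2 fold change of 2.76 became 3.48 without OEC replicate 1. The purinergic receptor P2RY11 had 19.8, 22.5 and 21.7 CPM in OE and 3.18, 3.71 and 3.64 CPM in OEC. The nuclease DNASE1 had 5.39, 6.8 and 4.54 CPM in OE and 18.9, 19.5 and 19.4 CPM in OEC. GPR75, with 7.31, 11.4 and 8.45 CPM in OE and 1.53, 1.31 and 0.976 CPM in OEC, shares reads with the readthrough transcript GPR75-ASB3 and is uncertain. ZDBF2 was called at 2.59 on Ensembl transcripts but had 72.7% of its counts in assembled ones, with which the log2 fold change was 0.28 (adjusted p = 0.269).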
